A study of Mus musculus with 6 samples.

Results

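The replication-dependent histone genes were taken as every row of the deposited expression table whose platform symbol names a member of the Hist1 to Hist4 clusters, which gave 20 of 15443 rows. Of these, 8 rows carried 1 symbol and 12 carried several in the array's annotation. The 20 rows named 45 distinct symbols and fell into 3 rows for the linker histone H1, 7 for H2A, 5 for H2B, 3 for H3 and 2 for H4. No row named a Hist3 or Hist4 cluster gene. The values came from primary hepatocytes of 3 wildtype C57BL/6 mice aged 8 to 12 weeks, isolated by collagenase perfusion of the liver and plated on collagen. Cells of each mouse were kept in normoxia (19.5% O2, 3 arrays) or in hypoxia (1% O2, 3 arrays) for 72 h according to the sample labels, and no other agent or allele differed between the groups. The paper gives a shorter exposure for the arrays, and which of them holds is not known. Total RNA was hybridized, after labeling, to arrays of the type Affymetrix Mouse Gene 2.0 ST, and each value is a log2 expression value after robust multi-array averaging (RMA).

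Core histones H2A, H2B, H3 and H4 form the protein spool around which DNA is wound, and H1 binds the linker DNA where it enters and leaves that spool. Genes of the replication-dependent kind lie in clusters, have no introns in their coding sequence and are expressed mainly in S phase, when newly made DNA has to be packaged. Their mRNAs typically end in a conserved stem-loop, bound by the stem-loop binding protein SLBP, in place of a poly(A) tail. Variant histone genes stand outside the clusters, and many but not all of them have mRNAs with ordinary poly(A) tails and are expressed through the cell cycle. Adult hepatocytes are largely quiescent in the liver and can re-enter the cell cycle. The paper names the Affymetrix WT PLUS Reagent Kit for the labeling but does not describe how that reaction is primed. The share of RNA without a poly(A) tail that it captured was not measured here.

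Some H1 and H2A rows and every H3 and H4 row were lower under hypoxia, while H2B had 1 row on each side. With limma, at an adjusted p below 0.05, 11 of the 20 rows were lower and 1 was higher, while 8 were not called. Over all rows of the table, 23.9% were lower and 15.5% were higher. The median log2 difference (hypoxia minus normoxia) of the histone rows was -0.65, with a range from -2.62 to 0.44, against -0.05 over all rows. In these bulk samples, fewer cells of a type or in a cell cycle phase and less RNA per cell cannot be told apart. Within single mice the median of the histone rows was -0.82 in mouse 1, -0.58 in mouse 2 and -0.46 in mouse 3. In 14 of the 20 rows each mouse was lower under hypoxia, as 36.9% of all rows were. All 3 hypoxic arrays lay below all 3 normoxic arrays in 13 of the 20 rows, where 31.9% of all rows did so. The opposite separation was seen in 1 row, against 22.4% of all rows. Without mouse 2, 7 histone rows were lower and none was higher, and the same counts were found without mouse 3. The counts over the whole table fell too, from 3698 lower rows to 1306 without mouse 2 and to 1726 without mouse 3. With the mouse entered as a block, 10 histone rows were lower (20.1% of all rows in that fit) and none was higher.

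**Figure D1:**
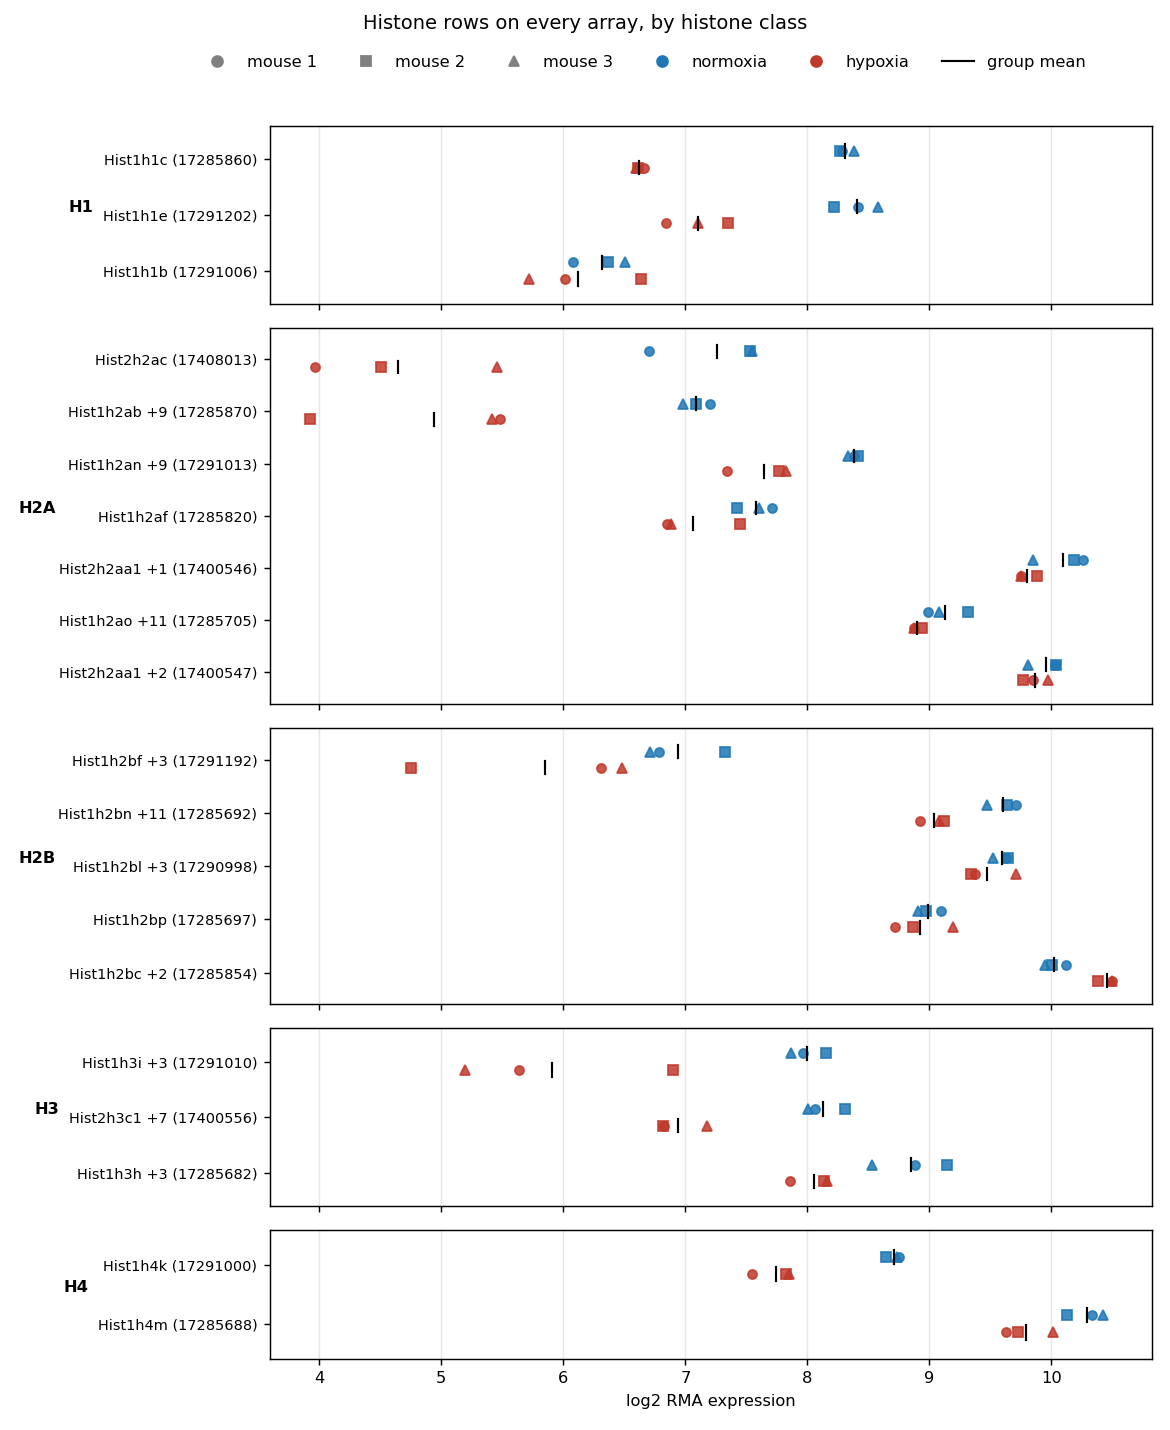
Log2 RMA expression (x axis) of the 20 histone rows on each of the 6 arrays, in 1 panel per histone class. Blue marks normoxia and red marks hypoxia, the marker shape gives the mouse and black ticks give group means. In all 3 H3 rows and both H4 rows the hypoxic arrays lie below the normoxic arrays, while the H2B row of Hist1h2bc, Hist1h2bg and Hist1h2be lies above. Levels are not to be compared between rows, whose probes differ.

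The classes differed in how many of their rows passed the test. Both H4 rows and all 3 H3 rows were lower, with median log2 differences of -0.74 and -1.19. In H1, 2 of 3 rows were lower and the median was -1.30. In H2A, 3 of 7 rows were lower with a median of -0.52, and in H2B 1 of 5 rows was lower, 1 higher and the median was -0.12. The H2B share of lower rows did not exceed that of all rows (23.9%). The H2B median was -0.38 in mouse 1, -0.30 in mouse 2 and 0.18 in mouse 3, whereas the medians of the other 4 classes were below 0 in every mouse. The classes hold few rows, some of which share symbols, and the difference between classes was not tested.

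Promoter windows show what these genes have in common outside the arrays. RefSeq windows of build GRCm38.p6, each running from 250 bases before to 50 bases after the annotated start, were matched for 41 of the 45 symbols and gave 42 windows. The 6 printed here belong to genes of each class but H3 that have a row with 1 symbol or, for *Hist1h2bg*, with 3. *Hist2h2ac* and *Hist1h2bg* are also named on rows with more symbols, and not every gene with a row of its own is printed. No H3 window is printed because each H3 row names at least 4 genes. Capitals mark exact matches, on either strand, to 4 motifs. These are the octamer ATTTGCAT, known in H2B promoters as a binding site of the factor Oct-1, the CCAAT box CCAAT, the TATA box TATAAA and the H1 box AAACACA known from H1 promoters. No motif matches overlapped one another in the member windows. The window of *Hist1h1c* lies at chr13:23738557-23738856 on the plus strand, *Hist1h1e* at chr13:23622509-23622808 on the minus strand, *Hist2h2ac* at chr3:96220831-96221130 on the minus strand, *Hist1h2bg* at chr13:23571150-23571449 on the plus strand, *Hist1h2bp* at chr13:21787238-21787537 on the plus strand and *Hist1h4k* at chr13:21750504-21750803 on the minus strand.
Hist1h1c: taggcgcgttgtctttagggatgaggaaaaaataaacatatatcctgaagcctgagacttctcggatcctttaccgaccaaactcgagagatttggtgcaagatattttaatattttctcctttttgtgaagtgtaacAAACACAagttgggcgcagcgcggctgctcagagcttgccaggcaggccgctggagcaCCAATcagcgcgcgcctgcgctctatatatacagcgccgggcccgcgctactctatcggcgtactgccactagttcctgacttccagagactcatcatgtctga
Hist1h1e: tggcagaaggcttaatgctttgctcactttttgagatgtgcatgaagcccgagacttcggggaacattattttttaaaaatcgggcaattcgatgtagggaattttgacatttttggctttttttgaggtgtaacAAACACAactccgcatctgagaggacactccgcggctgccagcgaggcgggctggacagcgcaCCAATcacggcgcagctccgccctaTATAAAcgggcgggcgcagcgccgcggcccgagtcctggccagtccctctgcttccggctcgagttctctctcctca
Hist2h2ac: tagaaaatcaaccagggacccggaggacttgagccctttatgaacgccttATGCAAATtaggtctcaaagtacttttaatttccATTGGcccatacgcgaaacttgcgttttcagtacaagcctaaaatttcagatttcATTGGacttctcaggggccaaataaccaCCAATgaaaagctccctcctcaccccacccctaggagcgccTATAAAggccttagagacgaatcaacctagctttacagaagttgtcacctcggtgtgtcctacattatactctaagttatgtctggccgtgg
Hist1h2bg: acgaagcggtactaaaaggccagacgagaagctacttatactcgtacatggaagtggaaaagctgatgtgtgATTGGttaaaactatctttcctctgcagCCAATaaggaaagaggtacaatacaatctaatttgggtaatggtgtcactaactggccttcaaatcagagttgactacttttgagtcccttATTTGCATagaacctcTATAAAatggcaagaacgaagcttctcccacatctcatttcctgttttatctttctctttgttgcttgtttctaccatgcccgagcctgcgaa
Hist1h2bp: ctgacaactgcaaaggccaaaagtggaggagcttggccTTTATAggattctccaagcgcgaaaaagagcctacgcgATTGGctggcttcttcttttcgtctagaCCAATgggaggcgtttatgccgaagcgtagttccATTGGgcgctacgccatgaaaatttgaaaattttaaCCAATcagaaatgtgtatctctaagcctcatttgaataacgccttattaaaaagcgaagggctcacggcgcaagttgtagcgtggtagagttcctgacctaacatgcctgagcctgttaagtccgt
Hist1h4k: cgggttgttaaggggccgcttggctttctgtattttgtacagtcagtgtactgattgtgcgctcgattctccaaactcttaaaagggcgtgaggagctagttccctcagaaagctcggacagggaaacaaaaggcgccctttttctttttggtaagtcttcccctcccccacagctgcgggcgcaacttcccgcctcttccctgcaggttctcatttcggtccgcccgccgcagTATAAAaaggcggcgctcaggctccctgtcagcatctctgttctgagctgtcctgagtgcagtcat

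A CCAAT box was found in 40 of the 42 member windows (95.2%), against 37.4% of the 32851 promoter windows of all genes. The windows without it were the 2 of H4. The TATA box was found in 22 member windows (52.4%, against 13.6% of all windows), and the octamer in 9 (21.4%, against 1.74%), of which 5 belong to H2A genes and 4 to H2B genes. All 3 H1 windows hold the H1 box, which 7.18% of all windows and 5 of the 42 member windows (11.9%) hold. Between the 2 H1 genes whose windows are printed, these boxes stand at nearly the same place. The H1 box begins 112 bases before the start of *Hist1h1c* and 115 bases before that of *Hist1h1e*, and the CCAAT box 54 and 52 bases before it. The window of *Hist1h1b*, whose row was not called, holds both boxes too, and their positions in it were not compared. Windows of gene copies can resemble one another, and a match describes letters and not a bound factor.

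Of the H1 genes, *Hist1h1c* (H1.2, row 17285860) had the most uniform fall. Its log2 expression under normoxia was 8.29, 8.27 and 8.38 in mice 1, 2 and 3, and under hypoxia it was 6.66, 6.61 and 6.60. The groups were far apart and each was tight (SD 0.06 and 0.03, n = 3 each). The log2 difference was -1.69 (standard error 0.12, adjusted p = 0.000344 from limma), a normoxic level 3.23 times the hypoxic one. *Hist1h1e* (H1.4, row 17291202) measured 8.42, 8.22 and 8.58 under normoxia and 6.84, 7.35 and 7.11 under hypoxia. Again no hypoxic array reached a normoxic one, and the fall was smallest in mouse 2. Its log2 difference was -1.30 (standard error 0.18, adjusted p = 0.00216). *Hist1h1b* (H1.5, row 17291006) measured 6.08, 6.37 and 6.50 under normoxia and 6.01, 6.64 and 5.71 under hypoxia. Here the groups overlapped and mouse 2 was higher under hypoxia. The row stood low on its arrays, at percentiles 4.08, 8.90 and 11.5 under normoxia and 6.26, 15.8 and 2.92 under hypoxia. Its distance to the array's background is unknown. Its log2 difference of -0.19 (95% interval from -0.78 to 0.40, adjusted p = 0.567) was smaller than the spread, and its sign turned without the hypoxic array of mouse 3 (0.01) or without mouse 3 (0.10). Both *Hist1h1c* and *Hist1h1e* stayed lower at the threshold in each alternative that kept them.

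In H3, whose rows each name several copies of the gene, all 3 rows fell. The row of *Hist1h3i*, *Hist1h3a*, *Hist1h3h* and *Hist1h3g* (17291010) measured 7.96, 8.15 and 7.87 under normoxia and 5.63, 6.90 and 5.19 under hypoxia. Hypoxic values spread much more widely than normoxic ones (SD 0.88 against 0.15, n = 3 each), with mouse 2 the least affected. This gave a log2 difference of -2.09 (standard error 0.40, adjusted p = 0.00700). Without mouse 3 the adjusted p was 0.0527 (from 0.00133 to 0.0527 over the alternatives) and the difference -1.79. The hypoxic values of this row stood at percentiles 2.69, 25.9 and 0.874 of their arrays in mice 1, 2 and 3. Without detection calls their distance to the array's background is unknown.

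The H3 row that joins *Hist2h3c1*, *Hist2h3c2* and *Hist2h3b* with 5 genes of the Hist1 cluster (17400556) measured 8.06, 8.31 and 8.01 under normoxia and 6.82, 6.82 and 7.18 under hypoxia. The groups were apart in all 3 mice. Its log2 difference was -1.19 (standard error 0.16, adjusted p = 0.00216), and it stayed lower in each alternative that kept it. The remaining H3 row (17285682) names the same 4 genes as row 17291010 and measured 8.88, 9.14 and 8.53 under normoxia and 7.86, 8.13 and 8.16 under hypoxia. Mouse 3 had the smallest fall, -0.37 against -1.02 and -1.01 in mice 1 and 2. On average the row fell by 0.80 on the log2 scale (standard error 0.19, adjusted p = 0.0149). It missed the threshold when the normoxic array from mouse 1 (adjusted p = 0.0526) or from mouse 2 (0.0543) was left out, and likewise without both arrays of mouse 1 (0.0741) or of mouse 2 (0.0995), within a range from 0.00591 to 0.0995 over the alternatives.

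H4 was represented by single-symbol rows. *Hist1h4k* (17291000) measured 8.75, 8.64 and 8.73 under normoxia and 7.54, 7.83 and 7.85 under hypoxia. All hypoxic arrays were clearly below, by -1.20, -0.82 and -0.88 within mice 1, 2 and 3. The log2 difference was -0.97 (standard error 0.14, adjusted p = 0.00258), a normoxic level 1.96 times the hypoxic one, and it stayed lower in each alternative that kept it. *Hist1h4m* (17285688) measured 10.33, 10.13 and 10.42 under normoxia and 9.63, 9.73 and 10.01 under hypoxia. Its groups did not overlap, but the highest hypoxic array came close to the lowest normoxic one. Its log2 difference was -0.50 (standard error 0.16, adjusted p = 0.0402). The adjusted p rose to 0.0554 once the mouse was a block. Of the single arrays, only leaving out the hypoxic one of mouse 3 kept the call (0.0287), and the range over the alternatives was 0.00656 to 0.158. The highest of these p-values came without mouse 1, where the difference was -0.40, and the call was also lost without mouse 2 (0.140) and without mouse 3 (0.0863).

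**Figure D2:**
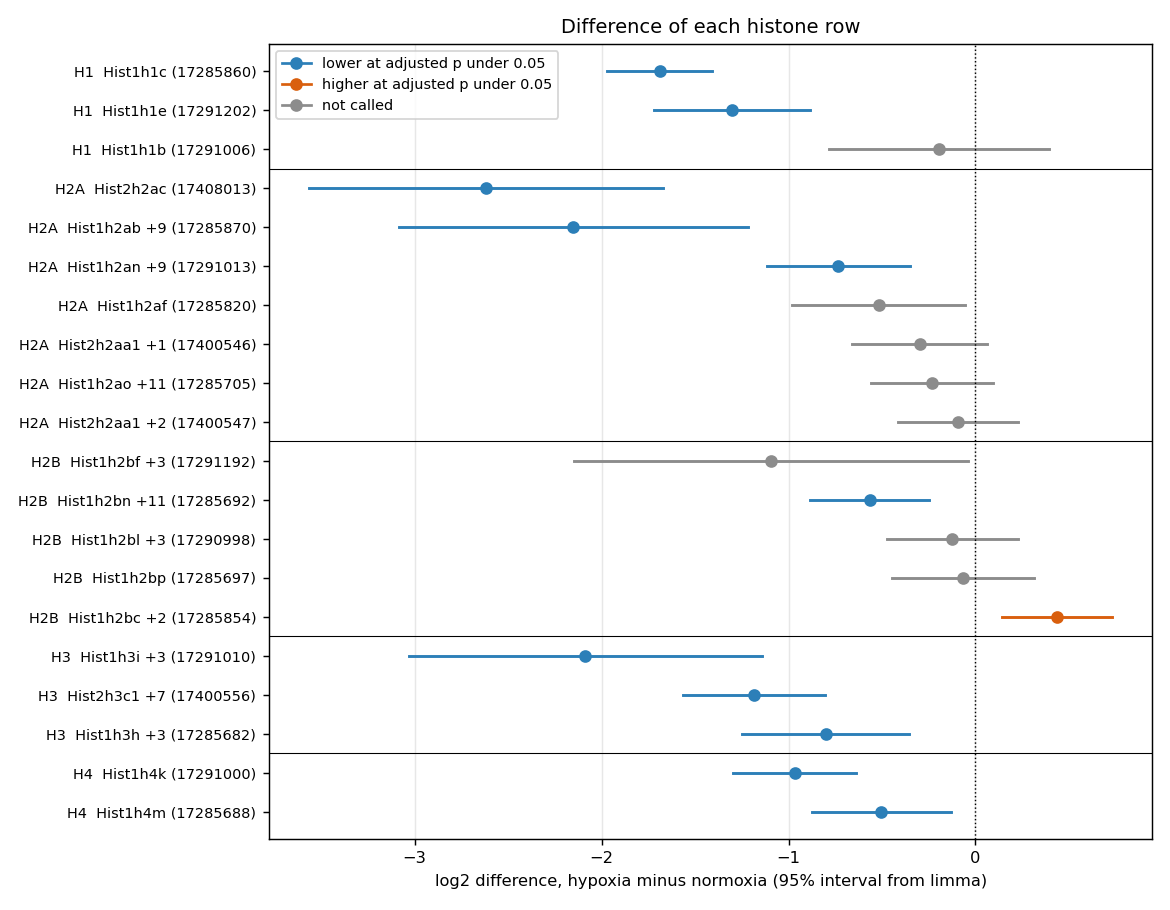
Log2 difference between hypoxia and normoxia (x axis) of each histone row with its 95% interval from limma, grouped by class. Blue rows were lower, the orange row was higher and gray rows were not called at an adjusted p under 0.05. The interval of the uncalled H2B row 17291192, from -2.15 to -0.04, is wider than those of the 3 rows whose difference lies beyond -2.

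H2A spanned the widest range of the classes. *Hist2h2ac* (row 17408013) measured 6.70, 7.53 and 7.55 under normoxia and 3.96, 4.50 and 5.46 under hypoxia. Each mouse fell by more than 2 log2 units, although the hypoxic arrays differed among themselves (SD 0.76, n = 3). Its log2 difference of -2.62 (standard error 0.40, adjusted p = 0.00312) was the lowest of the 20 rows, a normoxic level 6.14 times the hypoxic one. The hypoxic values stood at percentiles 0.104, 0.130 and 1.59 of their arrays, and without detection calls the distance to the array's background is unknown.

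A row shared by 10 H2A genes from *Hist1h2ab* to *Hist1h2ap* (17285870) measured 7.20, 7.08 and 6.98 under normoxia and 5.48, 3.92 and 5.42 under hypoxia. The normoxic arrays were alike, and mouse 2 fell by far the most, with -3.16 against -1.73 and -1.57 in mice 1 and 3. The log2 difference was -2.15 (standard error 0.40, adjusted p = 0.00598). Its hypoxic values stood at percentiles 1.95, 0.0453 and 1.51 of their arrays, so the distance to background is unknown here too. Another row with the same 10 symbols (17291013) measured 8.38, 8.42 and 8.34 under normoxia and 7.34, 7.77 and 7.82 under hypoxia. It fell less, by 0.73 on the log2 scale (standard error 0.16, adjusted p = 0.0118), and mouse 1 rather than mouse 2 had its largest fall. Its call was lost without mouse 2 (adjusted p = 0.0831) or mouse 3 (0.0525), within a range from 0.00625 to 0.0831. The rows of *Hist2h2ac* and 17285870 stayed lower in each alternative that kept them.

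The other 4 H2A rows did not pass the test. *Hist1h2af* (17285820) measured 7.71, 7.43 and 7.60 under normoxia and 6.85, 7.45 and 6.88 under hypoxia. Mice 1 and 3 were lower and mouse 2 differed by 0.03, which gave a log2 difference of -0.52 (standard error 0.20, adjusted p = 0.0720). Without the hypoxic array of mouse 2 it was -0.71 with an adjusted p of 0.0193, the lowest in a range up to 0.309 over the alternatives. The row of *Hist2h2aa1* and *Hist2h2aa2* (17400546) had a log2 difference of -0.30 (95% interval from -0.66 to 0.06), and the row that adds *Hist2h2ac* to them (17400547) one of -0.09 (from -0.42 to 0.23). A row joining 12 H2A symbols (17285705) measured 8.99, 9.32 and 9.08 under normoxia and 8.87, 8.94 and 8.88 under hypoxia. Its groups did not overlap, but the log2 difference of -0.23 (95% interval from -0.56 to 0.10, adjusted p = 0.223) did not pass.

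H2B was the class with movement in both directions. The row of *Hist1h2bc*, *Hist1h2bg* and *Hist1h2be* (17285854) measured 10.12, 10.00 and 9.95 under normoxia and 10.50, 10.38 and 10.50 under hypoxia. It was higher in all 3 mice and its groups did not overlap. A log2 difference of 0.44 (standard error 0.13, adjusted p = 0.0304) put the hypoxic level at 1.35 times the normoxic one. This only rise among the 20 rows missed the threshold in the fit blocked by mouse (adjusted p = 0.0679) and after a further quantile normalization (0.0532). It was kept when the hypoxic array of mouse 1 was left out and lost when any other array or any mouse was, and the range over the alternatives was 0.00441 to 0.165. The difference stayed between 0.37 and 0.48 in those settings that lost it.

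A row joining 12 H2B symbols, with *Hist1h2bc*, *Hist1h2be* and *Hist1h2bg* among them (17285692), measured 9.71, 9.63 and 9.48 under normoxia and 8.92, 9.12 and 9.08 under hypoxia. It was lower in each mouse, with no overlap. The log2 difference was -0.57 (standard error 0.14, adjusted p = 0.0156). It was no longer called when the normoxic array from mouse 1 (0.0616) or from mouse 2 (0.0604) was left out, nor without any 1 of the mice (0.0781, 0.107 and 0.0592 for mice 1, 2 and 3), in a range from 0.00374 to 0.107. Signal of *Hist1h2bc*, *Hist1h2be* and *Hist1h2bg* may thus enter a row that fell and a row that rose, and the direction of these 3 genes is uncertain.

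The remaining 3 H2B rows did not pass. *Hist1h2bf*, *Hist1h2bn*, *Hist1h2bl* and *Hist1h2bj* shared a row (17291192) that measured 6.78, 7.32 and 6.71 under normoxia and 6.31, 4.75 and 6.48 under hypoxia. The groups did not overlap, but mouse 2 carried most of the fall, with -2.57 against -0.47 and -0.23 in mice 1 and 3. That hypoxic value stood at percentile 0.246 of its array, again at an unknown distance to background. The log2 difference was -1.09 (standard error 0.45, adjusted p = 0.0906). The other row with these 4 symbols (17290998) had one of -0.12 (95% interval from -0.47 to 0.22). *Hist1h2bp* (17285697), the only H2B row with 1 symbol, measured 9.10, 8.98 and 8.90 under normoxia and 8.72, 8.87 and 9.19 under hypoxia. Mice 1 and 2 were lower, mouse 3 was higher, and the log2 difference was -0.07 (95% interval from -0.45 to 0.31). Its sign turned without the hypoxic array of mouse 1 (0.04) or without mouse 1 (0.09).

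Rows that name the same genes did not move by the same amount. In 11 pairs of histone rows at least 1 symbol was shared. The 2 H3 rows with the same 4 symbols differed by 1.28 on the log2 scale, and the 2 H2B rows with the same 4 symbols by 0.97. For the 2 H2A rows with the same 10 symbols the gap was 1.42, and between the row of *Hist2h2ac* alone and the one it shares with *Hist2h2aa1* and *Hist2h2aa2* it was 2.52. These gaps were not tested. Histone copies differ by few bases, and probes may bind RNA of copies other than those named, so that a change in a shared row cannot be assigned to 1 gene. With only the 8 single-symbol rows tested as histone rows, 5 were lower, none was higher and 3 did not pass. In the fit of all 13906 single-symbol rows, 3466 were lower and 1922 higher.

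**Figure D3:**
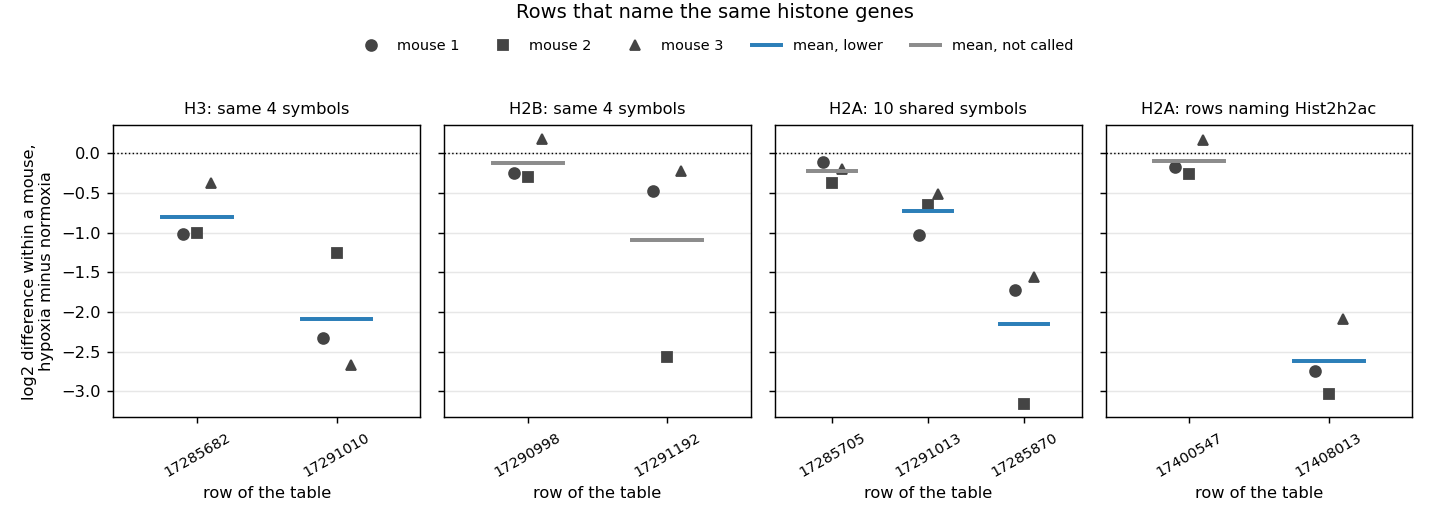
Log2 difference within each mouse (y axis, hypoxia minus normoxia) for rows that name the same histone genes (x axis, row of the table). Symbols give the mouse and bars the mean, in blue where the row was lower and gray where it was not called. In each panel the rows sit at different depths although their symbols are shared, from -0.09 to -2.62 for the rows that name Hist2h2ac.

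Of 11 variant histone genes listed outside the clusters, 6 were measured, 2 were lower, none was higher and the median log2 difference was -0.34. The shares of all rows were 23.9% lower and 15.5% higher. *H2afx*, whose product is phosphorylated at DNA breaks, measured 8.50, 8.47 and 8.13 under normoxia and 7.32, 7.45 and 7.20 under hypoxia. All hypoxic arrays were lower, with a log2 difference of -1.04 (standard error 0.15, adjusted p = 0.00279). *H2afv*, an H2A.Z gene, had a difference of -0.68 (standard error 0.22, adjusted p = 0.0478). Among the leave-outs that call was kept only where the hypoxic array or both arrays of mouse 2 were dropped, and its adjusted p ran from 0.00884 to 0.187 over the alternatives. The other H2A.Z gene, *H2afz*, measured 7.60, 7.91 and 7.58 under normoxia and 8.08, 7.85 and 7.44 under hypoxia, with overlapping groups. Its difference of 0.10 (standard error 0.20, adjusted p = 0.724) turned to -0.05 without the hypoxic array of mouse 1 and to -0.10 without mouse 1. Values for the replacement H3.3 gene *H3f3b* and the centromeric H3 gene *Cenpa* were -0.23 (adjusted p = 0.321) and -0.45 (adjusted p = 0.111). *Cenpa* passed the test only without the hypoxic array of mouse 1 (0.0465, in a range up to 0.317). *H1f0*, the linker histone of resting cells, was not in the table.

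For the machinery that makes and removes replication-dependent histone mRNA, 16 of 17 listed genes were measured, of which 3 were lower, none was higher and 13 did not pass (median -0.21). The share of lower genes did not exceed the 23.9% of all rows. *Npat*, the coactivator of histone gene transcription, measured 7.58, 7.66 and 7.75 under normoxia and 6.82, 6.61 and 6.16 under hypoxia. It was lower in every mouse, with a log2 difference of -1.13 (standard error 0.19, adjusted p = 0.00421). *Lsm10*, a component of the U7 particle that directs 3' end processing, had a difference of -0.63 (standard error 0.14, adjusted p = 0.0112), and *Upf1*, a helicase that takes part in histone mRNA decay, one of -0.41 (adjusted p = 0.0354, and 0.0721 in the fit blocked by mouse). *Slbp*, the stem-loop binding protein gene, measured 7.51, 7.58 and 7.44 under normoxia and 7.69, 7.44 and 7.86 under hypoxia. Its groups overlapped, and the difference was 0.15 (standard error 0.15, adjusted p = 0.461). Without mouse 2, no gene of this list was lower, and the adjusted p was 0.0512 for *Npat* and 0.115 for *Lsm10*. The lower rows of the whole table fell from 3698 to 1306 in that fit. Without mouse 3, 1 gene was lower and *Lsm10* was lost (0.0906). *Upf1* lost its call whenever an array or mouse was left out, except for the hypoxic array of mouse 3. Over the alternatives it ranged from 0.00242 to 0.0512 for *Npat*, from 0.00582 to 0.115 for *Lsm10* and from 0.0238 to 0.189 for *Upf1*.

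Among 19 measured histone chaperone and deposition genes, 8 were lower, 2 were higher and the median log2 difference was -0.49. For all rows the shares were 23.9% lower and 15.5% higher. The histone H3-H4 chaperone gene *Asf1a* (-1.27, standard error 0.21, adjusted p = 0.00433), the FACT subunit gene *Supt16* (-1.06, standard error 0.15, adjusted p = 0.00236) and the chromatin remodeler gene *Atrx* (-1.07, standard error 0.17, adjusted p = 0.00322) were lower in all 3 mice. The importin gene *Ipo4*, whose product carries histones into the nucleus, was higher, with a log2 difference of 0.61 (standard error 0.13, adjusted p = 0.0112). The counts depended on single libraries, as did those of all rows. In the whole table the lower rows fell from 3698 to 1306 without mouse 2 and to 1726 without mouse 3. Without mouse 2, 2 genes of this list were lower and none was higher. The lower genes numbered 3 without mouse 3 or the normoxic array of mouse 2, 4 without that of mouse 1 or of mouse 3, and 5 without the hypoxic array of mouse 3. Without mouse 2 the adjusted p was 0.0617 for *Asf1a* (from 0.00162 to 0.0617 over the alternatives) and 0.111 for *Ipo4* (from 0.00272 to 0.111).

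**Figure D4:**
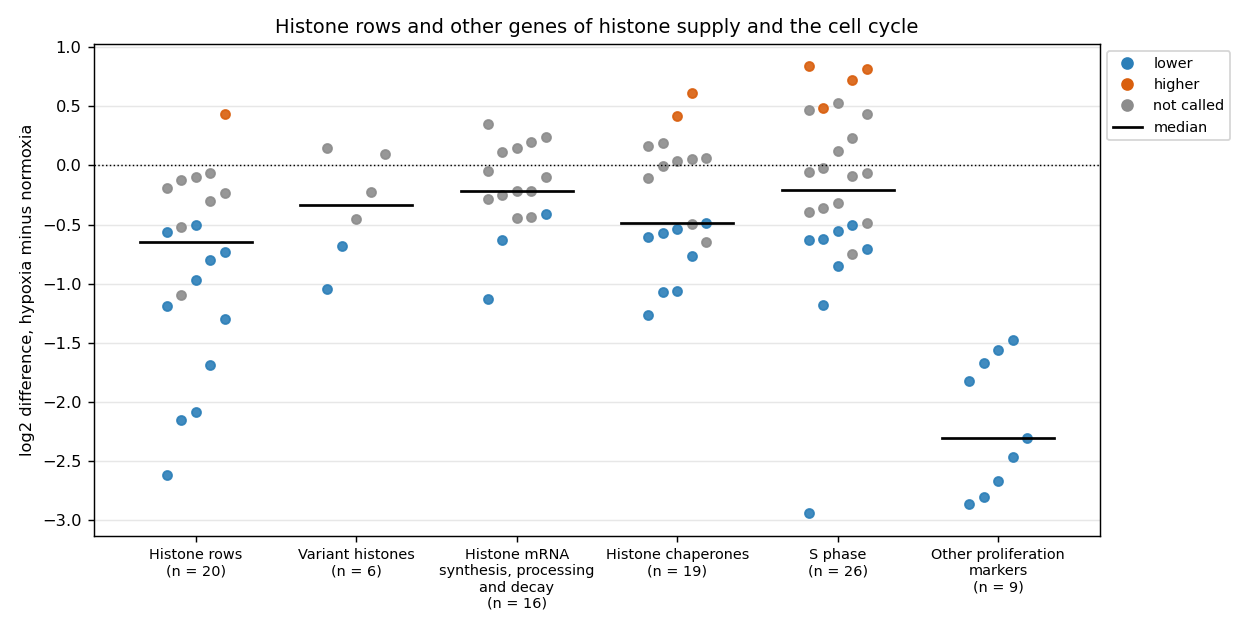
Log2 difference between hypoxia and normoxia (y axis) of the 20 histone rows and of the measured genes of 5 lists, with 1 point per row or gene and a black bar at the median. Blue points were lower, orange points higher and gray points not called at an adjusted p under 0.05. All 9 proliferation markers outside S phase lie below -1.4, while the S phase genes spread to both sides of 0.

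Of 26 measured S phase genes, 8 were lower, 4 were higher and 14 did not pass, with a median log2 difference of -0.20. These shares are close to those of all rows, of which 23.9% were lower and 15.5% higher. *Ccna2*, the cyclin gene of S phase and G2, measured 8.00, 7.60 and 7.68 under normoxia and 4.58, 4.39 and 5.48 under hypoxia. It fell in all mice by 2 log2 units or more, with a difference of -2.94 (standard error 0.29, adjusted p = 0.000832). *Gins4*, which encodes a subunit of the GINS complex of the replicative helicase, measured 7.96, 7.90 and 8.09 under normoxia and 6.78, 6.96 and 6.65 under hypoxia. It was lower in every mouse and in each alternative, with a difference of -1.18 (standard error 0.14, adjusted p = 0.00139). *Pcna*, which encodes the sliding clamp of the replication fork, measured 8.60, 9.03 and 8.81 under normoxia and 9.64, 9.73 and 9.51 under hypoxia, a difference of 0.81 (standard error 0.16, adjusted p = 0.00677). The replicative helicase gene *Mcm2* was also higher, by 0.84 (standard error 0.16, adjusted p = 0.00711). *Pcna* lost its call without mouse 3 (adjusted p = 0.0503, in a range from 0.00142 to 0.0503) and *Mcm2* without mouse 2 (0.0547, in a range from 0.00422 to 0.0547).

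The count of S phase genes that were lower was sensitive to single libraries. It was 2 when the normoxic array from mouse 1 was left out, 4 when that from mouse 2, that from mouse 3 or the hypoxic array from mouse 3 was, and 5, 3 and 4 without mice 1, 2 and 3. The higher genes numbered 1 without mouse 2 and 2 without mouse 3. Over all rows the lower calls fell too, from 3698 to 2548 without the normoxic array of mouse 1 and to 1306 without mouse 2. The higher calls of all rows fell from 2400 to 852 without mouse 2. All 9 measured proliferation markers outside S phase were lower with a median of -2.31, where 23.9% of all rows were lower. All 9 stayed lower in each leave-out. *Mki67*, the gene of the Ki-67 antigen, measured 8.03, 7.72 and 7.59 under normoxia and 5.32, 5.30 and 4.71 under hypoxia. Hypoxic arrays lay below normoxic ones, with a difference of -2.67 (standard error 0.21, adjusted p = 0.000473). The mitotic genes *Ccnb2*, *Plk1* and *Cdk1* had differences of -2.81, -2.46 and -1.67. Hypoxic values of these genes and of *Ccna2* stood low on their arrays, at percentiles from 0.311 to 1.35 for *Mki67*, 0.512 to 3.22 for *Ccnb2*, 0.777 to 2.65 for *Plk1*, 1.41 to 1.61 for *Cdk1* and 0.110 to 1.65 for *Ccna2*. Their distance to the background is unknown, and so is how exactly the differences were measured.

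The exposure was visible in *Ndrg1*, a hypoxia marker gene, which rose by 1.91 on the log2 scale (standard error 0.18, adjusted p = 0.000741). Of 8 hypoxia markers 7 were higher, where 15.5% of all rows were higher and 23.9% lower. Of 8 hepatocyte markers 2 were higher and 2 were lower. The higher ones were *Apoa1* (0.72, adjusted p = 0.00841) and *Serpina1c* (0.52, adjusted p = 0.0132). The lower ones were *Hnf4a* (-1.03, adjusted p = 0.00160) and *Fgb* (-0.94, adjusted p = 0.00188). The summed linear level of all 8 ran from 50789 to 53329 under normoxia and from 49071 to 49998 under hypoxia. Such a sum follows the brightest probes. Markers of other liver cells moved as well. The endothelial marker *Kdr* went the other way from the rest of its list, with a log2 difference of -0.40, and was not called. Of the sinusoidal endothelial markers 5 of 6 measured were higher (summed level from 951 to 1150 under normoxia, from 1692 to 1880 under hypoxia), of the macrophage markers 2 of 5 (from 1048 to 1270, and from 2280 to 2300) and of the lymphocyte and blood markers 1 of 3 (from 841 to 901, and from 965 to 1407). In the macrophage list *Cd68* rose by 1.35 on the log2 scale and *Marco* by 0.57, *Clec4f*, *Csf1r* and *Adgre1* had differences of -0.17, 0.22 and 0.36, and in the fit blocked by mouse only *Cd68* was called (13.3% of all rows were higher there). Of 5 cholangiocyte markers 2 were lower and 1 higher (from 2762 to 4160, and from 1222 to 1630). *Spp1* (-2.81) and *Sox9* (-1.14) were the lower ones and *Krt7* (0.82) the higher one, while *Krt19* and *Epcam* had differences of 1.18 and 0.34, and in the blocked fit *Krt19* was called in place of *Krt7*. Of 7 stellate cell and fibroblast markers 1 was lower (from 1018 to 1216, and from 956 to 1273). The part of these cells in the histone differences was not tested. Array medians lay between 7.42 and 7.49, and hypoxic arrays correlated less with one another across rows (r from 0.903 to 0.938) than normoxic ones did (0.958 to 0.963).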

How the data were processed

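The 6 arrays hold RNA of primary hepatocytes from 3 mice, each in normoxia and in hypoxia. The authors made the values with RMA in oligo, as their methods and processing notes say, and deposited them on the log2 scale. RMA corrects the background, quantile-normalizes the arrays and summarizes the probes of a transcript. The table holds part of the array's rows, and how these were chosen is not given in the sources used here. Values were used as deposited. They come without detection calls, and the precision of a difference was judged only from the spread between arrays, partly pooled over all rows by limma. The platform annotation supplied gene symbols, and RefSeq supplied current names and promoter windows.

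Every row of the table (15443) entered a limma fit (limma 3.58.1, R 4.3.3, lmFit and eBayes) with the condition as the only term. P-values were adjusted by Benjamini-Hochberg over these rows, with a threshold of 0.05, and standard errors and 95% intervals are those of this fit. For 3 against 3 arrays the smallest two-sided p of an exact permutation test is 0.1, so none was used. The labels place each mouse in both conditions, so the samples are paired by design. As a check, the deviations from the group means were correlated between the arrays of each mouse, which gave -0.11, 0.02 and 0.10 for mice 1, 2 and 3. The 16 alternatives were the mouse as a block (with and without trend and robust eBayes), trend and robust eBayes alone, leaving out the dimmest 25 percent of rows, testing only single-symbol rows, a further quantile normalization, centring on brighter rows, and leaving out each array or mouse. Every histone row could be named. From each other list, up to 4 genes with the smallest adjusted p were named, and *Slbp*, *Npat*, *H1f0*, *H2afx*, *H2afz*, *Mki67* and *Ndrg1* in any case. Where a listed gene had several rows, as *H2afz*, *Supt16* and *Ndrg1* did, the row with the highest mean was used. The other rows of such genes are not given. The members and the gene lists were chosen with earlier results of these data known. The fit was checked on simulated data.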

Additional observations from a re-analysis of the deposited data

How the results depend on the processing

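Of the 11 histone rows that were lower, 6 kept that call in every alternative that could be run on them. The 1 row that was higher did not, and 7 of the 8 uncalled rows stayed uncalled. Testing only single-symbol rows left 5 histone rows lower and 0 higher, with 1 lower in H2A (median -1.57), 0 lower and 0 higher in H2B, and no H3 row to test. Of the 13906 rows in that fit, 3466 were lower and 1922 higher. The mouse as a replicate block gave 0 histone rows higher (0 in H2B), 1 lower in H4, 1 chaperone gene higher and 1 macrophage marker higher, and it moved no other histone class or list count by over 1.5 times. Quantile normalization again gave 0 histone rows higher (0 in H2B), 1 variant histone lower, a median of -0.16 for the mRNA processing list and 1 chaperone higher. Without the dimmest rows, 1 H2A row and 5 S phase genes were lower, the medians were -0.23 for variant histones, -0.15 for mRNA processing and -0.30 for chaperones, the S phase median turned to 0.12, and no proliferation marker was left to test. Centring on the brighter rows gave 1 H4 row and 1 variant histone lower, and medians of -0.28 for variants and -0.15 for mRNA processing.

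With single arrays or mice left out, 7 to 11 histone rows were lower and 0 to 1 higher. The H2A median ran from -0.78 to -0.35, H2B had 0 to 1 rows lower and 0 to 1 higher, and H4 had 1 to 2 lower. Variant histones had 1 to 2 genes lower and medians from -0.44 to -0.23. The mRNA processing list had 0 to 3 lower, 0 to 1 higher and medians from -0.28 to -0.12. Chaperones had 2 to 8 lower and 0 to 2 higher, and S phase genes 2 to 10 lower and 1 to 5 higher. The log2 difference changed sign within the range from -0.25 to 0.091 for *Hist1h2bp*, from -0.45 to 0.10 for *Hist1h1b* and from -0.10 to 0.27 for *H2afz*. The cause of these changes was not tested. Leaving out a mouse also leaves fewer arrays, and without mouse 2 only 1306 rows of the whole table were lower, against 3698 with all arrays.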
